A study of Homo sapiens with 10 samples.

Results

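Binding of 5 transcription factors was examined at the genes for 2 microRNAs, MIR21 on chromosome 17 and MIR181B1 on chromosome 1, in human mammary epithelial cells before and after transformation. Members were all deposited ChIP-seq peaks whose summit fell in chr17:57770000-57960000, a window of 190 kb around the MIR21 position near 57918627, or in chr1:198750000-198950000, a window of 200 kb around the MIR181B1 position near 198828000, in the hg19 build named in the submitters' processing notes. The rule took 377 of the 879550 peaks on chromosomes 1 to 22 and X, 248 at MIR21 and 129 at MIR181B1, and it used position only. At the edges of the MIR21 window, the outermost summits inside lay 2269 and 5816 bp from the limits and the nearest summits outside lay 9141 and 8274 bp beyond them. At the MIR181B1 window the corresponding distances were 4805 and 9731 bp inside and 162 and 2876 bp outside.

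The cells were ER-Src cells, a derivative of the non-tumorigenic mammary line MCF-10A. They express v-Src joined to the hormone-binding part of the estrogen receptor, which makes the kinase depend on tamoxifen. FOS, JUN, JUNB, NFKB1 and STAT3 were each mapped once in non-transformed cells and once in transformed cells, the latter given 1 µM 4-hydroxy-tamoxifen for 12 h, which makes 10 groups of 1 sample. Every group therefore carried the v-Src fusion, and the groups differed in the drug and in the protein precipitated. According to the library names inside the lists, the controls spent 36 h in ethanol against 12 h in the drug, so time in culture may also have differed, and the replicate letters of the JUNB and STAT3 libraries differ between the states. No expression was measured, and the identity of the line was not checked here.

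FOS, JUN and JUNB are subunits of AP-1, a dimeric factor that answers to growth factor and stress signals. NFKB1 is the p50 subunit of NF-κB and its precursor, and STAT3 is phosphorylated on tyrosine downstream of cytokine receptors and Src and then binds DNA as a dimer. The STAT3 antibody, by its catalogue number, is sold against the tyrosine-phosphorylated form. In this transformation model STAT3 is known to act on both microRNA genes, and miR-181b represses the deubiquitinase CYLD, a brake on NF-κB.

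The products of the loci are printed because they define what the bound regions surround. RefSeq (GRCh38.p14) gives the following mature sequences, with the seed, bases 2 to 8 that pair with target mRNAs, in capitals.
hsa-miR-21-5p: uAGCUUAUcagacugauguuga
hsa-miR-181b-5p: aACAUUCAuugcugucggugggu
hsa-miR-181a-5p: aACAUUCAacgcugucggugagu
miR-181a is included because its gene MIR181A1 lies beside MIR181B1 in the same host transcript. The miR-181b and miR-181a strands are identical at 20 of 23 positions and share their seed, which 5 of the 2370 mature names in the table carry, whereas 2 names carry the miR-21 seed.
The hairpins follow, with the mature strands that the RefSeq table lists in capitals, which is the 5p strand for MIR21 and both strands for MIR181B1.
MIR21 hairpin: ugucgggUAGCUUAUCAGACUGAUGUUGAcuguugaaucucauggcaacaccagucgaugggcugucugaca
MIR181B1 hairpin: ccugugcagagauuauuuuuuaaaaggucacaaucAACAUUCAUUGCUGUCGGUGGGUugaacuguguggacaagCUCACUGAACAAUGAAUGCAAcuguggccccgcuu

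By the RefSeq order of genes, MIR21 is transcribed on the plus strand at the 3′ end of its host gene VMP1, which encodes a membrane protein needed for autophagy, with PTRH2 diverging from the VMP1 start and TUBD1 beyond MIR21 on the opposite strand. MIR181B1 and MIR181A1 are transcribed on the minus strand within the long noncoding RNA MIR181A1HG, and PTPRC, which encodes the leukocyte phosphatase CD45, is the neighbor on the other side. Upstream and downstream below follow the direction of transcription of each microRNA. Exons and introns were not assigned to the peaks.

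Each list gives the pileup at a summit, the number of extended reads that cover it. Libraries kept 4837474 to 22082403 reads, with NFKB1 in non-transformed cells the shallowest, and the pileup was therefore expressed in RPM, reads over the summit per 1000000 filtered reads. Intervals are exact Poisson 95% intervals on the pileup, ratios are transformed over non-transformed with exact conditional binomial 95% intervals, and both cover counting error only. No value has a replicate, so no difference was tested and no p-value is given.

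STAT3 gave 47 of the 248 peaks at MIR21 and 13 of the 129 at MIR181B1, over both states. At MIR21, FOS had 27 peaks in non-transformed and 36 in transformed cells, JUN 28 and 36, JUNB 15 and 20, NFKB1 11 and 28, and STAT3 17 and 30. At MIR181B1, FOS had 17 and 26 peaks, JUN 13 and 16, JUNB 13 and 12, NFKB1 3 and 16, and STAT3 4 and 9. FOS and JUN were thus the most frequent proteins at MIR21 in both states, and at MIR181B1 the STAT3 list was among the shortest in both states.

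Most lists were longer in transformed cells, and the loci were read against that. At MIR21 the NFKB1 peak number was 2.55 times higher in transformed cells (95% interval 1.23 to 5.67), beside 5.57 times over its whole list, and at MIR181B1 it was 5.33 times higher (1.53 to 28.6). STAT3 peak number was 1.76 times higher at MIR21 (0.942 to 3.41) and 2.25 times at MIR181B1 (0.628 to 10.0), beside 1.87 for the whole list. The ratios of FOS, JUN and JUNB lay between 1.29 and 1.33 at MIR21, with 1.34 to 1.56 for their whole lists. JUNB at MIR181B1, with a ratio of 0.923 (0.385 to 2.19), was the only list that was not longer there. The NFKB1 library was deeper in transformed cells, at 9674390 against 4837474 reads, and the part of depth in these numbers was not tested.

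MIR21 lies in a densely bound stretch. Among 14506 windows of the same length that tile the genome and hold a peak in any list, the median window in non-transformed cells had 7 peaks of FOS, 4 of JUN, 4 of JUNB, 0 of NFKB1 and 2 of STAT3, and 0.103 to 2.69% of windows had as many as the MIR21 window for the protein in question. For the MIR181B1 window in the same state, 6.11 to 33.8% of windows had as many, the highest share being that of STAT3. These shares describe the windows and were not tested.

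The positions of the peaks relative to the microRNAs also differed. At MIR21, 166 summits lay upstream and 82 downstream, 63 were within 10 kb and 124 within 20 kb. At MIR181B1, 104 lay upstream and 25 downstream, and only 2 were within 10 kb, 3 within 20 kb and 18 within 25 kb. Both windows reach farther upstream than downstream of their microRNA, so the upstream and downstream counts are not densities and show no upstream preference. The nearest MIR21 summit, of JUN in transformed cells, was 13 bp from the position in the rule, and the nearest STAT3 summit of non-transformed cells was 1517 bp away. At MIR181B1 the nearest STAT3 summit in that state was 22564 bp away.

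**Figure D1:**
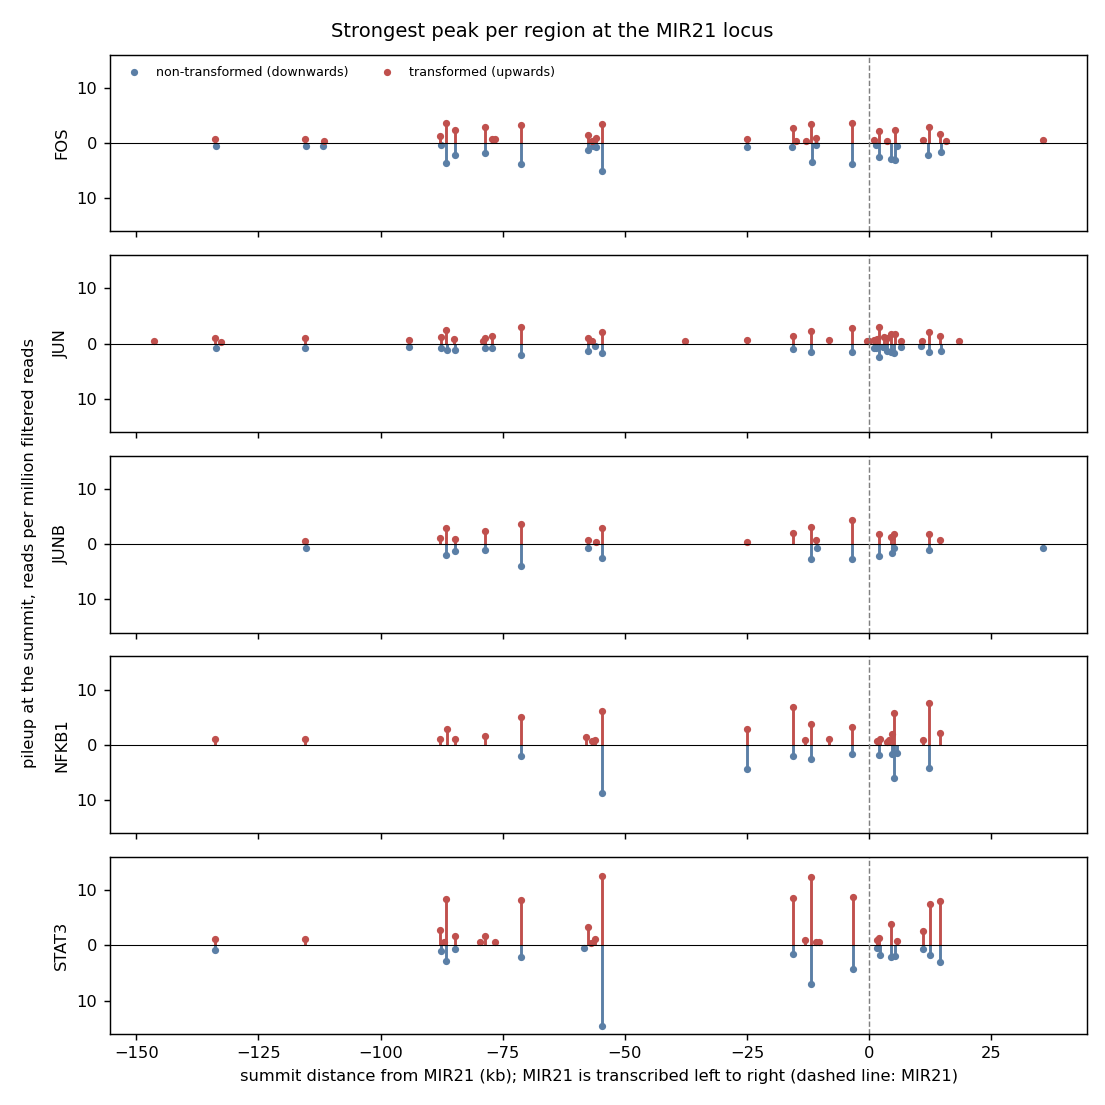
Pileup in RPM (vertical axis) at MIR21 against the distance of the summit from MIR21 in kb (horizontal axis, negative is upstream). Only the strongest peak of each protein and state in each merged region is drawn. Each protein has a panel and each state a color, with non-transformed cells drawn downwards and transformed cells upwards. The largest values are those of the STAT3 peaks 54.6 kb upstream, at 14.6 before and 12.5 after transformation.

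**Figure D2:**
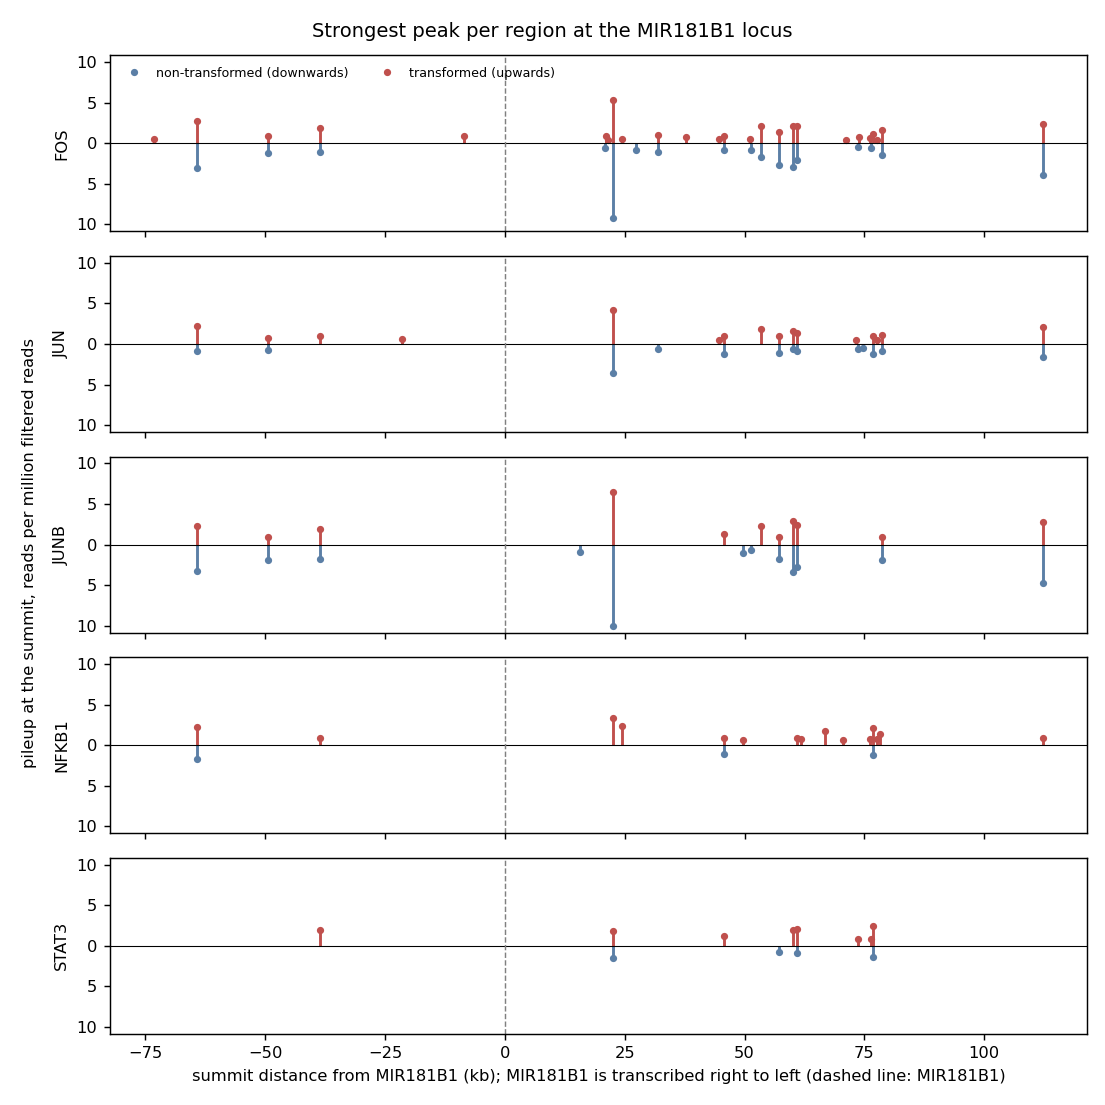
The same plot for MIR181B1, with positive genomic distances lying upstream because the gene is on the minus strand. The FOS, JUN and JUNB peaks 22.5 kb upstream have the largest values of their panels in both states, and STAT3 reaches at most 2.45.

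Peaks were grouped into regions by merging windows of 150 bp on each side of the summits over all 10 lists, which gave 49 regions at MIR21 and 34 at MIR181B1. At MIR21, 8 of the 32 regions bound in non-transformed cells had all 5 proteins, beside 3.68% of bound regions genome-wide. In transformed cells 14 of 49 had all 5, beside 17.4%, and 6 of 49 had all 5 in both states, beside 2.23% of all regions. At MIR181B1, 0 of 21 regions had all 5 proteins in non-transformed cells and 4 of 31 in transformed cells. The 14 MIR21 regions of transformed cells comprised 11 upstream and 3 downstream of the microRNA, in a window that reaches farther upstream. Regions with a single protein numbered 20 of 49 at MIR21 (40.8%) and 14 of 31 at MIR181B1 (45.2%) in transformed cells, beside 39.99% over all bound regions.

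**Figure D3:**
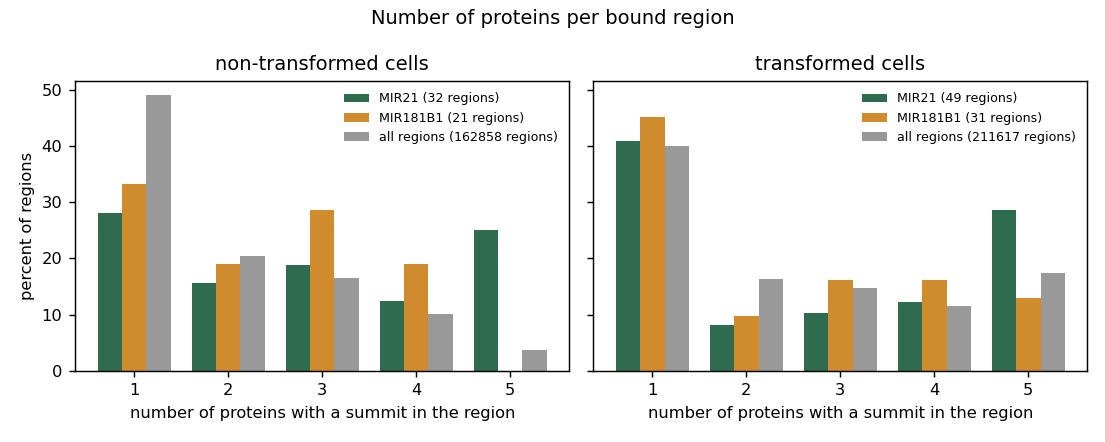
Percent of bound regions (vertical axis) by the number of the 5 proteins with a summit in the region (horizontal axis). Each state has a panel, with bars for each locus and for all regions. All 5 proteins met in 8 MIR21 regions of non-transformed and 14 of transformed cells, and in 0 and 4 MIR181B1 regions.

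The highest pileup of the MIR21 locus was 54.6 kb upstream (chr17:57863846-57864181). STAT3 had 160 reads over the summit in non-transformed cells and 112 in transformed cells, that is 14.6 RPM (12.5 to 17.1) and 12.5 RPM (10.3 to 15.03). These peaks ranked 6 of 42810 and 58 of 80265 by significance in their lists. STAT3 was thus near the top of its list at this region before the drug was given, and the ratio of 0.853 (0.664 to 1.09) was below the median of 1.71 over the 30047 regions with STAT3 in both lists. Scaled by total reads before the duplicate filter, the ratio was 1.23, so its direction depends on the scaling.

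NFKB1 stood high in the same region, with 8.68 RPM (6.26 to 11.7) in non-transformed and 6.20 (4.73 to 7.98) in transformed cells, ranks 275 of 13252 and 531 of 73822. The ratio was 0.714 (0.474 to 1.09). FOS had 4.99 RPM (4.03 to 6.12) and 3.35 (2.63 to 4.21), a ratio of 0.671 (0.488 to 0.920), and this was the FOS peak with the highest pileup at MIR21 in non-transformed cells. JUN and JUNB had ratios of 1.32 (0.787 to 2.26) and 1.14 (0.675 to 1.97), and both intervals included 1. Their medians over all regions in both lists were 1.29 and 0.964. The summits of the 5 proteins spanned 35 bp in non-transformed and 10 bp in transformed cells.

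The region 11.9 kb upstream (chr17:57906578-57906975) was the second highest for STAT3 in both states. STAT3 had 7.05 RPM (5.56 to 8.81) in non-transformed and 12.4 (10.2 to 14.9) in transformed cells, a ratio of 1.76 (1.30 to 2.38) that lay close to the STAT3 median of 1.71. The other 4 proteins were in both lists, FOS at a ratio of 0.990, JUN at 1.48, JUNB at 1.12 and NFKB1 at 1.54, and every one of these intervals included 1.

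Nearer the microRNA, the region 3.4 kb upstream (chr17:57914916-57915415) was the closest upstream region with all 5 proteins. STAT3 had 46 and 78 reads, or 4.21 (3.08 to 5.61) and 8.70 (6.88 to 10.9) RPM, a ratio of 2.07 (1.42 to 3.04). JUNB was also higher, at 2.72 and 4.44 RPM (ratio 1.63, 1.02 to 2.69), and so was JUN, at 1.58 and 2.76 (1.75, 1.07 to 2.95). Relative to the median of each protein over shared sites, these ratios were 1.21 for STAT3, 1.69 for JUNB and 1.36 for JUN. FOS had about the same value in both states, 3.81 and 3.58 RPM (0.938, 0.672 to 1.31). NFKB1 went from 8 reads to 31, a ratio of 1.94 (0.871 to 4.88).

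At the microRNA itself only weak JUN peaks were listed. The regions at chr17:57918464-57918764 and chr17:57918048-57918348, whose summits lay 13 bp and 429 bp from the position in the rule, each had a JUN peak of 8 reads in transformed cells and no peak of any protein in non-transformed cells. At 8.2 kb upstream (chr17:57910228-57910550), JUN and NFKB1 had 11 and 10 reads in transformed cells only.

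Downstream of the hairpin the AP-1 subunit JUN was prominent. The region 2.1 kb downstream (chr17:57920469-57920939) had a JUN pileup of 2.46 RPM (1.75 to 3.36) in non-transformed cells, rank 804 of 81444, and 2.93 RPM (2.20 to 3.82) in transformed cells. FOS had 2.52 and 2.22 RPM there, JUNB 2.07 and 1.90, and NFKB1 1.86 and 1.03. STAT3 had 19 and 12 reads, a ratio of 0.770 (0.341 to 1.67). The NFKB1 ratio was 0.556 (0.203 to 1.55), and with so few reads a difference in NFKB1 or STAT3 was not detectable at this depth.

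Farther downstream, 2 neighboring regions shared peaks. At 5.2 kb (chr17:57923626-57923994) NFKB1 had 5.99 RPM (4.01 to 8.61) and 5.69 (4.28 to 7.40), ranks 671 of 13252 and 740 of 73822. The ratio was 0.948 (0.594 to 1.54), and by fold enrichment it was 1.58, on the other side of 1. JUNB had 7 and 30 reads there, a ratio of 2.50 (1.07 to 6.74). At 4.5 kb (chr17:57922858-57923398) STAT3 had 2.01 and 3.90 RPM, a ratio of 1.94 (1.11 to 3.47), and NFKB1 had 1.65 and 1.96 RPM. In transformed cells a single FOS peak covered both regions with its summit at 5.2 kb, and a single STAT3 peak did so with its summit at 4.5 kb, so a missing summit there is not a missing peak. The other regions within 10 kb downstream, 1.1 kb, 1.5 kb, 3.0 kb, 3.6 kb, 4.0 kb, 5.7 kb and 6.5 kb from MIR21, held peaks of at most 21 reads.

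The region 12.3 kb downstream (chr17:57930577-57931134) had the highest NFKB1 value of the locus in transformed cells. NFKB1 had 4.13 RPM (2.53 to 6.39) in non-transformed and 7.55 (5.91 to 9.49) in transformed cells, rank 213 of 73822 in the latter. STAT3 had 1.65 (0.976 to 2.60) and 7.58 (5.89 to 9.61), a ratio of 4.60 (2.71 to 8.23). The STAT3 intervals of the states did not overlap, its ratio relative to the median over shared sites was 2.70, and the AP-1 subunits had ratios of 1.35 to 1.81, each with an interval that included 1.

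**Figure D4:**
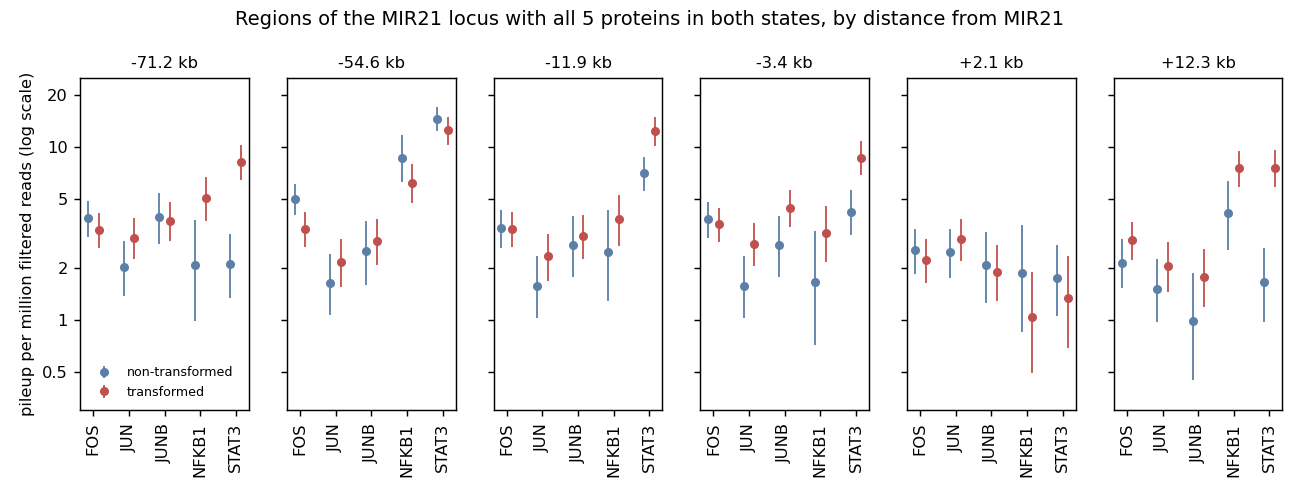
Pileup in RPM (vertical log axis) of each protein in the 6 MIR21 regions with all 5 proteins in both states, one panel per region, with exact Poisson 95% intervals as bars. STAT3 is the highest protein 54.6 kb upstream in both states, and 71.2 kb upstream it goes from 2.10 in non-transformed to 8.25 in transformed cells.

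STAT3 was higher in transformed cells over most of the MIR21 regions where it was listed in both states. In 10 of 16 such regions the ratio was at least 2, beside 39.1% of the 30047 regions genome-wide, and the median ratio was 2.41, beside 1.71. Scaled by the median over shared sites, 5 of 16 were at or above 2, beside 12.6%, and by total reads 13 of 16, beside 64.0%. By fold enrichment there were 8 of 16, beside 32.1%. The STAT3 background here was 1.32 times the genome level in transformed cells and at that level in non-transformed cells. Its part in the ratios was not tested. The 10 include regions 58.0 and 87.7 kb upstream whose STAT3 summits differ between the states. Relative to MIR21 these were at -58439 and -57519 bp in the former, and at -87655 and -87850 bp in the latter. At or below 0.5 there were 0 of 16, beside 0.978%, and under the median scaling 2 of 16, beside 10.4%. A further 11 of the 28 regions with STAT3 were listed in transformed cells only, beside 52.8%, and 0 in non-transformed cells only, beside 12.9%. The STAT3 library of non-transformed cells kept 53.3% of its reads after the removal of duplicates and was extended by 150 bp, while the other kept 77.1% and was extended by 119 bp, and the part of these differences in the ratios was not tested.

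Among the far upstream regions, 71.2 kb (chr17:57847202-57847547) and 86.6 kb (chr17:57831869-57832317) from MIR21, STAT3 was at least 2 times higher by filtered reads. At 71.2 kb it had 2.10 (1.33 to 3.16) and 8.25 (6.48 to 10.4) RPM, a ratio of 3.92 (2.43 to 6.56), and NFKB1 had 2.07 and 5.06, a ratio of 2.45 (1.23 to 5.43). FOS and JUNB had ratios of 0.855 and 0.955 there. At 86.6 kb STAT3 had 2.84 (1.93 to 4.03) and 8.48 (6.68 to 10.6) RPM, a ratio of 2.99 (1.94 to 4.70). Relative to the STAT3 median over shared sites, these ratios were 2.30 at 71.2 kb and 1.75 at 86.6 kb. JUN went from 17 to 44 reads in this region, a ratio of 2.22 (1.24 to 4.15), and NFKB1 had no peak in non-transformed cells and 28 reads in transformed cells. FOS had 3.71 and 3.62 RPM, so that its value differed little where STAT3, JUN and NFKB1 differed.

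The region 15.7 kb upstream (chr17:57902772-57903223) lies outside the rule for named regions and was singled out after its values were seen, because 3 proteins passed the 2-fold level together. STAT3 had 1.46 (0.837 to 2.38) and 8.59 (6.78 to 10.7) RPM, a ratio of 5.87 (3.39 to 10.8). FOS had 12 and 61 reads, a ratio of 4.29 (2.29 to 8.75), and NFKB1 had 10 and 66 reads, a ratio of 3.30 (1.69 to 7.20). JUNB had no peak in non-transformed cells and 33 reads in transformed cells, whereas JUN had 16 and 25 reads (1.34, 0.689 to 2.69). In the next named region toward MIR21, at 11.9 kb, FOS had a ratio of 0.990. At 58.0 kb upstream (chr17:57860038-57861258) STAT3 had 6 and 30 reads, but the ratio of 6.09 compares different summits within a chained region of 1221 bp.

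For the other proteins at MIR21 the counts past 2-fold were small. The ratio was at least 2 in 3 of 21 regions for FOS, beside 8.54% genome-wide, in 1 of 25 for JUN, beside 14.8%, in 2 of 14 for JUNB, beside 7.74%, and in 2 of 10 for NFKB1, beside 9.26%. FOS had a median ratio of 0.990, JUN 1.32, JUNB 1.13 and NFKB1 1.36, beside 0.949, 1.29, 0.964 and 1.03. None of these regions was at or below 0.5, beside 5.99, 0.807, 7.02 and 5.92%. Listed in transformed cells only were 9 of 33 FOS regions (34.3% genome-wide), 10 of 36 JUN regions (43.1%), 5 of 20 JUNB regions (37.2%) and 16 of 27 NFKB1 regions (82%). Listed in non-transformed cells only were 2 FOS regions (10.2% genome-wide), 1 JUN region (11.3%), 1 JUNB region (15.5%) and 0 NFKB1 regions (1.7%). The NFKB1 share in transformed cells only was thus below that of its whole list. In 10 regions NFKB1 was in both lists, including that of the shallow library of non-transformed cells. The region 5.7 kb downstream also had an NFKB1 summit in non-transformed cells, and a transformed peak with its summit elsewhere covered it.

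**Figure D5:**
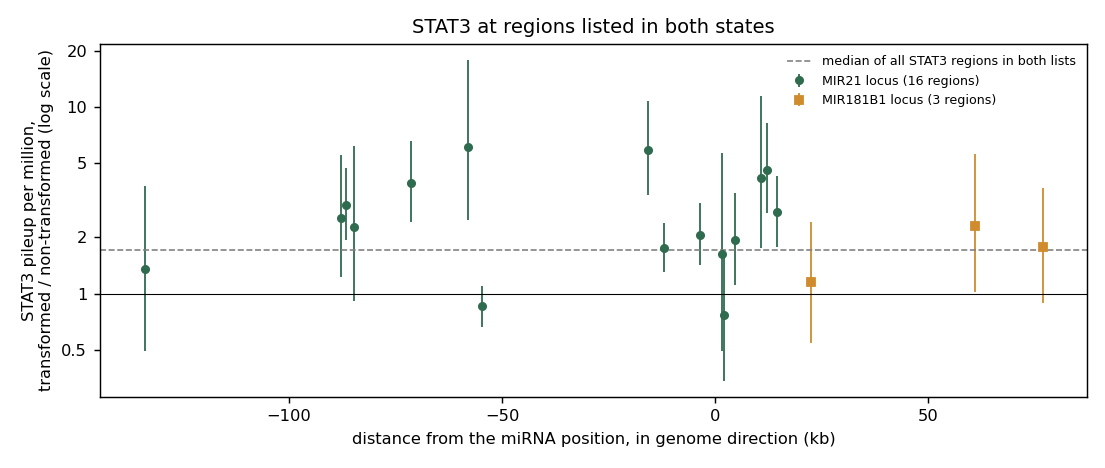
STAT3 ratio of pileup in RPM, transformed over non-transformed, on a log axis for each region listed in both states, against its distance from the microRNA, with exact conditional binomial 95% intervals. At MIR21 10 of 16 regions lie at or above 2 while the region 54.6 kb upstream lies at 0.853, and the median over all STAT3 regions is 1.71.

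At MIR181B1 the strongest region was an AP-1 region 22.5 kb upstream (chr1:198850374-198850714). FOS had 171 reads over the summit in non-transformed cells and 118 after transformation, 9.18 (7.86 to 10.7) and 5.34 (4.42 to 6.40) RPM, a ratio of 0.582 (0.456 to 0.740). These FOS peaks ranked 19 of 119754 and 105 of 164605 in their lists. JUNB had 10.0 (8.08 to 12.3) and 6.48 (5.28 to 7.86) RPM, a ratio of 0.646 (0.483 to 0.866), with ranks 62 of 75249 and 347 of 101014. Beside genome-wide median ratios of 0.949 and 0.964, both intervals lay below 1. Scaled by total reads, the FOS ratio was 0.566 (0.444 to 0.720) and the JUNB ratio was 0.888 (0.664 to 1.19), so the JUNB difference exceeded its counting error only under some scalings.

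JUN, the partner of FOS in AP-1, had overlapping intervals in the same region. Its values were 3.53 (2.67 to 4.59) and 4.17 (3.29 to 5.21) RPM, a ratio of 1.18 (0.826 to 1.70) and ranks 267 of 81444 and 325 of 127335. NFKB1 had no peak in non-transformed cells and 33 reads in transformed cells. STAT3 had 17 and 16 reads, a ratio of 1.15 (0.542 to 2.41), and ranks 11387 and 29815 in its lists. These were 1.56 and 1.78 RPM, beside whole-list medians of 0.915 and 1.23. The former was the highest STAT3 value of the locus in non-transformed cells. The region with the most AP-1 signal at MIR181B1 was therefore not among the first of either STAT3 list. The MIR21 region with the highest pileup was picked by its STAT3 peak, so its STAT3 rank is no contrast to this.

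FOS and JUNB were also lower in transformed cells at 112 kb upstream (chr1:198940073-198940419). FOS had 3.92 and 2.35 RPM there, a ratio of 0.601 (0.413 to 0.869), and JUNB had 4.79 and 2.79, a ratio of 0.583 (0.375 to 0.906), or 0.801 (0.515 to 1.25) by total reads. At 57.2 kb (chr1:198884972-198885344) FOS had 50 and 32 reads, a ratio of 0.540 (0.335 to 0.858), and STAT3 had a peak of 9 reads in non-transformed cells only. Over the 9 MIR181B1 regions with JUNB in both lists the median ratio was 0.646, and 2 of 9 were at or below 0.5, beside 7.02% genome-wide. Under the 3 other scalings this count was 0. The JUNB library kept 50.1% of its reads before transformation and 68.9% after it, and the part of this difference was not tested. For FOS the median ratio over 16 regions was 0.964, beside 0.949 genome-wide, and 8 of the 16 were above 1. The FOS ratio was at least 2 in 0 of 16, beside 8.54%, and at or below 0.5 in 0, beside 5.99%. Nothing is read from so few regions.

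JUN reached a ratio of at least 2 in 2 of 10 MIR181B1 regions, beside 14.8% genome-wide, and its median ratio was 1.24, beside 1.29. At 64.2 kb downstream (chr1:198763603-198763981) it had 13 and 42 reads, a ratio of 2.78 (1.46 to 5.64), while FOS had 57 and 60 reads and JUNB 30 and 37. At 60.2 kb upstream (chr1:198888002-198888339) JUN had 9 and 30 reads, a ratio of 2.86 (1.33 to 6.86). STAT3 was listed in transformed cells only at the latter, with 17 reads, and NFKB1 in neither state.

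STAT3 and NFKB1 peaks of MIR181B1 reached at most 22 and 33 reads. STAT3 was in both lists in 3 regions, and the ratio reached 2 in 1 of them, 61.0 kb upstream (chr1:198888748-198889137), with 10 and 19 reads (2.32, 1.02 to 5.58). The highest STAT3 value of the locus, 2.45 RPM (1.54 to 3.71) in transformed cells, was 76.8 kb upstream (chr1:198904643-198905013). STAT3 was listed in transformed cells only in 5 of 9 regions, beside 52.8% genome-wide, and NFKB1 in 12 of 15, beside 82%, so both were near the background. All 5 proteins met in transformed cells at 22.5 kb, 45.7 kb and 61.0 kb upstream and at 38.6 kb downstream (chr1:198789236-198789585), and in the last of these JUN, NFKB1 and STAT3 were listed in transformed cells only, with 17, 9 and 17 reads. The single region within 10 kb of MIR181B1 (chr1:198819305-198819807) lay 8.4 kb downstream and held FOS peaks of transformed cells, the highest with 20 reads.

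The loci differed in the background that MACS took for its fold enrichment. Pileup in RPM scales by library depth only, so any difference in local background between the loci remains in it. The background implied by the pileup and fold enrichment was 1.64 to 1.90 times the genome-wide level at MIR181B1 in all 10 libraries, and at MIR21 it was 1.00 in 8 libraries, 1.07 for NFKB1 and 1.32 for STAT3 in transformed cells. Fold enrichment at MIR181B1 was therefore lower than at MIR21 for the same pileup.

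Where all 5 proteins met, their summits were close by construction, since regions were merged from windows around summits. The distances to the STAT3 summit were therefore set beside those over all such regions. In the 14 MIR21 regions of transformed cells FOS summits lay a median 19.5 bp from the STAT3 summit, JUN 15 bp, JUNB 30.5 bp and NFKB1 18 bp, beside 24, 26, 26 and 30 bp over all such regions. In the 8 regions of non-transformed cells the medians were 41.5 to 69.5 bp, beside 32 to 40 bp. With a −log10 q of at least 10, which left 3 of these regions, they were 9 to 26 bp, beside 26 to 32 bp, so the order relative to all regions turned. In the 4 MIR181B1 regions of transformed cells they were 12, 9, 24.5 and 52 bp, and the 1 region left at that threshold had 1, 5, 29 and 39 bp.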

How the data were processed

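The 10 deposited peak lists were made by the authors with MACS 2.0.10.20131216, per library and without a control, from uniquely aligned 36 bp reads (Bowtie and hg19 in the submitters' processing notes), with at most 1 read per position, a background over 1000000 bp and a q-value cutoff of 0.05. The deposited pileup is a signal not scaled by depth. The deposited significance is −log10 of p and q, and fold enrichment, as deposited, is the ratio of pileup over local background. No control library corrects for copy number, and the cap of 1 read per position limits the tallest summits.

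Values here are pileup per 1000000 filtered reads (RPM). Peaks of all 10 lists were merged where windows of 150 bp on each side of summits overlapped by at least 1 bp. The members and lists were chosen with earlier results of these data known. Named were regions within 10 kb of the microRNA, the 5 with the largest summed fold enrichment in transformed cells, the largest of each protein and state, those with all 5 proteins in both states, and those with STAT3 in 1 state and at least 3 other proteins in transformed cells. Alternatives were a −log10 q of at least 10, equal list lengths, at least 2 RPM, 25 kb windows, windows of 50 bp, whole peaks and 3 other scalings. Peak sequences, motifs, gene parts and the microRNAs' target genes were not analysed here, since no hg19 sequence or annotation was used. Code in Python 3.11.15 (numpy 2.4.6, pandas 2.3.3, scipy 1.17.1, matplotlib 3.10.9) was tested on simulated data.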

Additional observations from a re-analysis of the deposited data

How the results depend on the processing

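No paired analysis was possible because every group consists of 1 sample, so that a block would leave no residual degrees of freedom, and no library could be left out of a group. With the lists of each pair set to equal length, the peak number ratio at MIR21 was 1 for NFKB1 (11 peaks in each) and 0.941 for STAT3, and at MIR181B1 it was 1.33 for NFKB1, the lists being shorter by construction. With at least 2 RPM, JUN ratios were 3.5 at MIR21 (7 peaks in transformed against 2 in non-transformed cells) and 3 at MIR181B1 (3 against 1). For NFKB1 at MIR181B1 no ratio could be formed at a −log10 q of at least 10, at 2 RPM or within 25 kb, nor for STAT3 at 2 RPM, since 0 peaks remained in non-transformed cells. With a −log10 q of at least 10, all 5 proteins met in 3 MIR21 regions of non-transformed cells, in 3 in both states and in 1 MIR181B1 region of transformed cells. Without NFKB1, an alternative added after seeing the data, the other 4 met at MIR181B1 in 3 regions of non-transformed cells and in 2 in both states.

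Regions past 2-fold higher at MIR21 numbered 18 over the 5 proteins, 25 when scaled by total reads, 12 when scaled by the median over shared sites and 22 by fold enrichment. Regions at or below 0.5 at MIR21 numbered 0 and were 3 under the median scaling, and those at MIR181B1 numbered 2 and were 0 under total reads, median scaling and fold enrichment. The STAT3 ratio 54.6 kb upstream of MIR21 was 1.23 by total reads and 0.50 by the median scaling, the one 11.9 kb upstream was 2.54 and 1.03, and those 3.4, 71.2 and 86.6 kb upstream and 12.3 kb downstream were 1.21, 2.30, 1.75 and 2.70 by the median scaling. By fold enrichment the NFKB1 ratio was 1.21 at 54.6 kb upstream and 1.58 at 5.2 kb downstream. At MIR181B1 the JUNB ratio 22.5 kb upstream was 0.888 by total reads. Where construction does not show it, the cause was not tested. Peaks of 4 to 8 reads limit what the shallow NFKB1 library can show.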
